A study of Mus musculus with 30 samples.

Results

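Transcripts of 10 genes of MHC class I antigen presentation were followed in 30 RNA-seq libraries of sorted mouse microglia. They were taken by symbol from the 46078 genes of the count table: the heavy chain genes H2-K1, H2-D1, H2-Q6, H2-Q7 and H2-M3, the light chain B2m, the peptide transporter and loading genes Tap1, Tap2 and Tapbp, and the regulator Nlrc5. All 10 passed the filter on low counts that kept 13880 genes. They were taken by name, but the set was chosen with earlier results of these data known. Counts of these 10 beside the share of all genes are therefore a description. The mice were C57BL/6 and fell into 8 groups. Naive young wild-type mice (WT, 4 libraries, Atg7wt/wt Cx3cr1CreERT2), naive young knockout mice (KO, 4 libraries, Atg7fl/fl Cx3cr1CreERT) and naive old mice labelled Atg7 wild type (4 libraries) had no disease. Mice with experimental autoimmune encephalomyelitis (EAE), an induced autoimmune inflammation of the central nervous system, were sampled at day 21 (3 WT and 4 KO libraries) and at day 35 (4 WT, 4 KO and 3 old libraries). WT and KO mice both carried the tamoxifen-inducible Cre under the Cx3cr1 promoter, which is active in microglia and in other Cx3cr1-expressing macrophages, and both were given tamoxifen (3 doses of 4 mg, 48 h apart) at least 18 days before EAE was induced with rmMOG and pertussis toxin. The same tamoxifen protocol is attached to the old mice, but it names only those 2 genotypes, and no label gives the Cre genotype of the old mice. Cells were sorted as live CD11b+ CD45 intermediate Ly6G- and/or eYFP+, and material from females and males was pooled 1:1. No label states that the libraries of a group come from separate mice. Within each EAE group the EAE scores of the libraries were not all the same, so those libraries were not all repeats of the same material. The p-values measure only the spread between these libraries, part of which may be technical.

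MHC class I molecules carry peptides from the inside of a cell to its surface, where CD8 T cells and natural killer cells read them. A heavy chain folds with the invariant light chain beta-2-microglobulin (B2m), peptides cut by the proteasome are pumped into the endoplasmic reticulum by the Tap1 and Tap2 transporter, and tapasin (Tapbp) holds the empty heavy chain next to it. H2-K1 and H2-D1 are the classical heavy chains, H2-Q6 and H2-Q7 belong to the Qa-2 family and H2-M3 presents peptides that start with N-formyl methionine. Nlrc5 is the transactivator of class I promoters, where it joins the factors RFX, CREB or ATF, and NF-Y, and interferons raise the transcription of the pathway. Resting microglia are known for low class I levels.

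On the genome (GRCm38, GENCODE M21) 8 of the 10 genes lie on chromosome 17, in and around the H2 complex: Tapbp at 33915899 to 33929292, H2-K1 at 33996017 to 34000347 on the minus strand, Tap1 at 34187553 to 34197225, Tap2 at 34203527 to 34216321, H2-D1 at 35262730 to 35267499, H2-Q6 at 35424850 to 35430055, H2-Q7 at 35439155 to 35443773 and H2-M3 at 37270220 to 37274484. B2m lies on chromosome 2 at 122147686 to 122153083 and Nlrc5 on chromosome 8 at 94434356 to 94527272, and all but H2-K1 are on the plus strand. All are protein coding, and counts were summed over a gene. Exons of Tapbp overlap those of Zbtb22 on its own strand. Exons of Tap1 overlap Psmb9, and those of Tap2 and Nlrc5 overlap other annotated genes, on the opposite strand. The strand setting of the counting is not given in the sources used here, so reads in those stretches could belong to either gene, and H2-Q6 and H2-Q7 are near-identical copies between which reads may be split.

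Total counts ran from 4712803 to 11034565 a library. Atg7, the targeted gene, had 11.4 to 31.8 CPM (the count scaled to a common library total) in naive KO and 26.6 to 40.1 in naive WT, but 31.0 to 36.9 in KO and 19.8 to 25.3 in WT at day 21, and 30.3 to 33.8 in KO and 21.3 to 23.8 in WT at day 35. The deleted exon is not given in the sources used here, so a count over the whole gene does not check the KO label, and KO below stands for the libraries labelled KO. For replicate 3 of day 35 WT the title gives WT and another label gives knockout, and it was kept as WT. Summed levels of 10 microglia markers were high in every group (6426 to 26428 CPM), and markers of other cells were present too: at day 21, monocyte markers summed to 2333 to 3219 CPM in KO and 200.3 to 541 in WT. One naive WT library, replicate 3, stood apart in several of the 10 genes, and results that involve naive WT are given with and without it where that changes a call or moves a fold strongly.

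The stretch before the start of 6 of the genes is shown because it holds the letters by which class I promoters are usually recognised. RefSeq windows of 300 bases (250 before to 50 after the start, GRCm38.p6) were found for 8 of the 10 genes, Tap2 and Nlrc5 being the others. The 120 bases below are read 5′ to 3′ on the gene's strand and end 4 bases after the ATTGG nearest the start. Capitals mark the letters searched: GGG, any 5 bases and CC on either strand (a loose NF-kappaB pattern, whose matches overlap each other), GAAA, any 2 bases and GAAA (a strict form of the interferon-stimulated element), TGACG (the core of CREB and ATF sites) and ATTGG (the CCAAT letters of NF-Y on the opposite strand).
H2-D1, chr17:35262907-35263026, plus strand: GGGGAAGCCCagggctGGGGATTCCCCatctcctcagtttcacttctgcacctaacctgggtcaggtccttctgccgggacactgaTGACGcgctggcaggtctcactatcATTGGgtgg
H2-K1, chr17:34000355-34000474, minus strand: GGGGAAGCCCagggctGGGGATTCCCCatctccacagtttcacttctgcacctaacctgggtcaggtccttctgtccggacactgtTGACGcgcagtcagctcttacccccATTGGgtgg
H2-Q6, chr17:35424660-35424779, plus strand: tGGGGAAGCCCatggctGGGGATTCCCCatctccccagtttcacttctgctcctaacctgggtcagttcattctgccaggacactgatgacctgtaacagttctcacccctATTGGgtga
H2-Q7, chr17:35439004-35439123, plus strand: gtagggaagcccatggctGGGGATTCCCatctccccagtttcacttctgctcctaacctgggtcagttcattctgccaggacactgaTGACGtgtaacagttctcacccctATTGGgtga
H2-M3, chr17:37270102-37270221, plus strand: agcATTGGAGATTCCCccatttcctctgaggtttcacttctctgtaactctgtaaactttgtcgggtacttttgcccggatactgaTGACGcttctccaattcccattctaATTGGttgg
B2m, chr2:122147523-122147642, plus strand: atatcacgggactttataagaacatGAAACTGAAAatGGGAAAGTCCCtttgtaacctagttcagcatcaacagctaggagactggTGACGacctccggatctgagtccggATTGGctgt
TGACG was found in 6 of the 8 windows, in H2-D1, H2-K1, B2m, Tap1, H2-M3 and H2-Q7, against 20.8% of all 32851 RefSeq windows searched on both strands. CCAAT was found in 8 of 8 against 37.4%, the NF-kappaB pattern in 7 of 8 (all but Tapbp) against 50.8%, and GAAA, any 2 bases and GAAA in 1 of 8, B2m, against 3.44%. The letters GTTTCAC, part of the interferon response sequence of class I promoters, were searched after the sequences were seen: H2-D1, H2-K1, H2-Q6, H2-Q7 and H2-M3 hold them (in lower case above), 5 of 8, against 2.50% of all windows. In the 5 sequences above that hold TGACG, its first base lies 24 or 25 bases before the first base of ATTGG. That spaced pair (TGACG, then 19 or 20 bases, then ATTGG, on either strand) was looked for after the sequences were seen, and 0.131% of all windows, 43 of them, hold it. H2-Q6 has the NF-kappaB letters and ATTGG of its neighbour H2-Q7 but no TGACG in this window. These are matches of letters in a sequence and show no binding.

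The first question was how far EAE moved the class I genes in WT microglia. At day 21, 9 of the 10 genes were higher than in naive WT, against a background of 9.51% of all genes tested called higher (edgeR quasi-likelihood test, Benjamini-Hochberg adjusted p under 0.05, as for every call here). Their median difference was 2.04 on the log2 scale, against -0.01 over all genes. The classical heavy chain H2-K1 stood at 274, 266, 438 and 268 CPM in the naive WT libraries and at 1199.6, 1599 and 1639.9 CPM at day 21, with no overlap (log2 fold change 2.25, SE 0.19, adjusted p = 1.97e-09). H2-D1 stood at 285, 318, 571 and 342 CPM in naive WT and 1246, 1766 and 1805 at day 21 (log2 fold change 2.08, SE 0.21, adjusted p = 8.27e-08). Every day 21 library was thus more than the highest naive one for both classical heavy chains. Because bulk RNA was measured, more cells of a type and more RNA per cell cannot be told apart.

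The largest fitted rises among the 10 were those of the Qa-2 genes, which were at low levels in naive WT, replicate 3 apart. H2-Q6 was at 12.1, 4.69, 37.4 and 6.56 CPM in naive WT and 242, 339 and 332 CPM at day 21 (19.6-fold, log2 4.29, SE 0.43, adjusted p = 2.44e-07). H2-Q7 went from 3.97, 2.58, 15.3 and 2.57 CPM to 92.6, 133 and 139 CPM (19.4-fold, log2 4.28, SE 0.41, adjusted p = 1.6e-07). For both genes replicate 3 was the highest naive library, and without it the rises were 38.0-fold for H2-Q6 and 39.3-fold for H2-Q7. Summing H2-Q6, H2-Q7 and their relative H2-Q4, between which reads could be split, gave a log2 fold change of 3.58 (SE 0.30, adjusted p = 1.88e-08). H2-M3 rose from 23.4, 25.1, 34.8 and 28.8 CPM to 71.3, 100.7 and 85.5 CPM (3.06-fold, adjusted p = 2.37e-08).

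B2m, already abundant in naive microglia, moved less. It stood at 1106, 1355, 1254 and 1196 CPM in naive WT and 2141, 2583 and 2379 CPM at day 21 (log2 fold change 0.95, SE 0.18, adjusted p = 0.000453). Tap1 rose from 56.3, 61.9, 91.8 and 68.9 CPM to 280.2, 276 and 285 CPM (4.02-fold, adjusted p = 9.45e-10), the smallest spread of the 10 genes at day 21 relative to its mean. Its partner Tap2 moved from 89.7, 76.2, 91.1 and 91.2 CPM to 121.6, 123.6 and 130.2 CPM (1.44-fold, adjusted p = 0.00191). Tapbp, at 267, 327.9, 263 and 263 CPM in naive WT and 319, 335 and 355 CPM at day 21, did not pass the test (log2 fold change 0.26, 95% interval 0.02 to 0.51, adjusted p = 0.115). Without naive WT replicate 2, its highest naive library, Tapbp passed (log2 fold change 0.37, adjusted p = 0.0416). Nlrc5, the transactivator, stood at 13.7, 8.44, 48.3 and 13.8 CPM in naive WT and 261, 244 and 223 CPM at day 21 (11.3-fold, log2 3.50, SE 0.42, adjusted p = 3.99e-06), or 19.8-fold without naive WT 3.

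Markers of other cells moved in the same comparison. From naive WT to day 21 WT, 7 of 8 neutrophil markers were called lower and 1 higher, all 6 border macrophage markers lower, 3 of 8 monocyte markers lower and 5 of 10 microglia markers lower, against 12% of all genes called lower, while none of the 6 tested T and NK cell markers was called. From naive WT to day 35 WT the neutrophil and border macrophage counts were the same, and 4 monocyte and 4 microglia markers were lower. There 10.7% of all genes were called lower. Their part in the result was not tested.

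**Figure D1:**
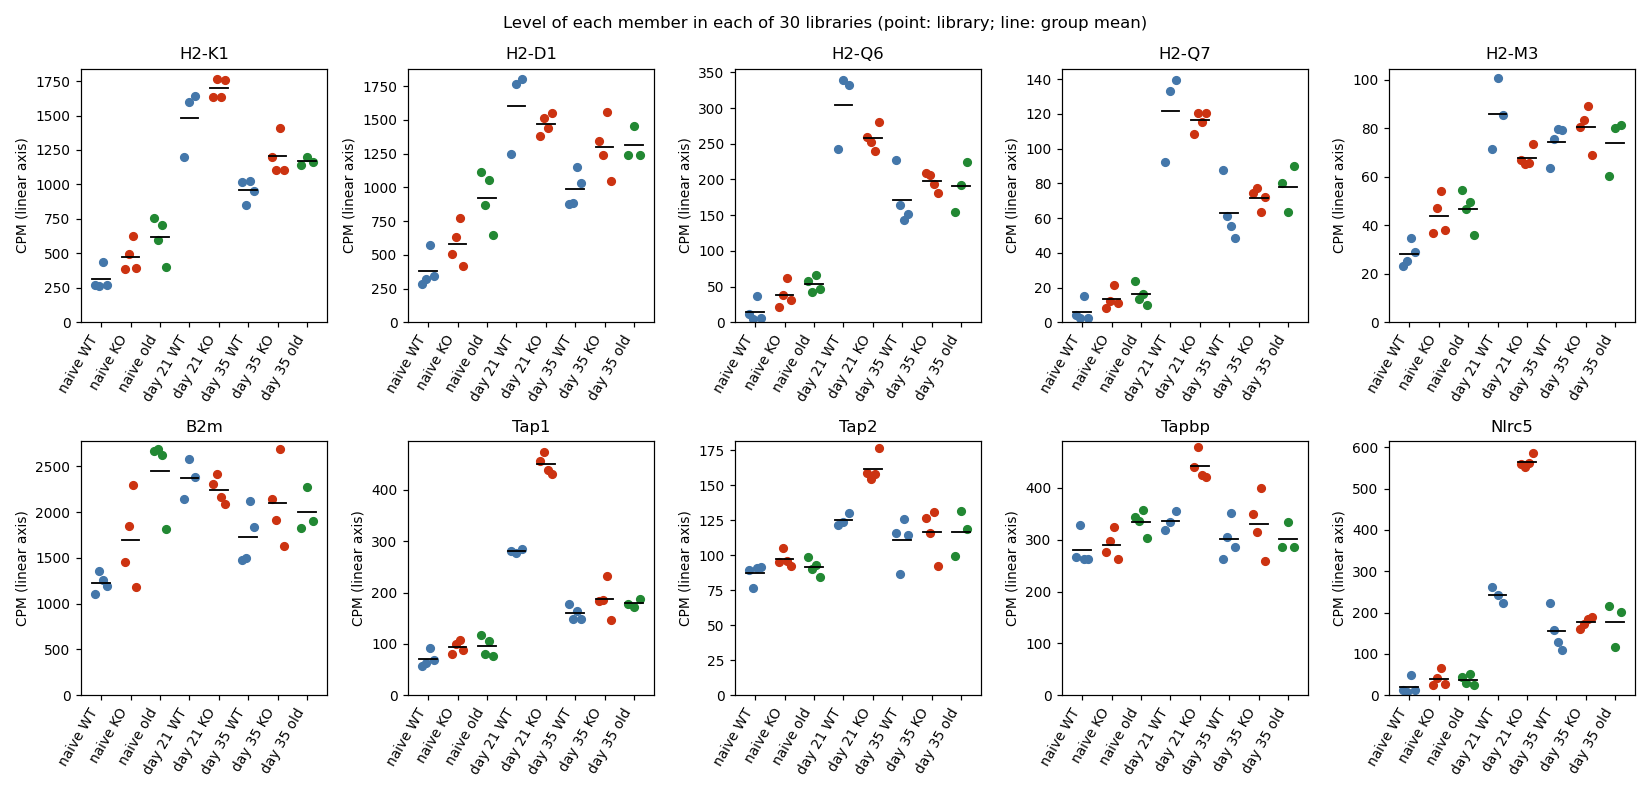
CPM of each of the 10 genes (y axis, linear, from 0, a scale per panel) in the 30 libraries, grouped along the x axis, with a point for each library and a line for the group mean. Nlrc5 and Tap1 stand highest in the 4 day 21 KO libraries (553 to 585 and 430.1 to 474 CPM), while H2-Q6 and H2-D1 of the 2 day 21 groups overlap.

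At day 35 the levels in WT were lower than at day 21 but above naive, and 9 of 10 genes were called higher than in naive WT (background 8.4%). H2-K1 stood at 1021, 852, 1025 and 952 CPM (3.09-fold over naive WT, adjusted p = 1.47e-06), Nlrc5 at 223, 159, 129.6 and 109.8 CPM (7.25-fold, adjusted p = 9.19e-05) and H2-Q6 at 227, 164.2, 143.6 and 151 CPM (11.03-fold, adjusted p = 1.27e-05). Without naive WT 3 Nlrc5 was 12.7-fold and H2-Q6 21.4-fold higher. Replicate 1 was the highest day 35 WT library for Nlrc5, H2-Q6 and H2-Q7. B2m was called at 1.41-fold (adjusted p = 0.0373) and lost its call without any of naive WT 1, 3 or 4 or day 35 WT 3 or 4, where its log2 fold change lay between 0.39 and 0.58. Tap2 was called at 1.27-fold (adjusted p = 0.0252) and lost its call without day 35 WT 1 or 3 or naive WT 2 (log2 fold change from 0.28). Tapbp did not pass (log2 fold change 0.10, 95% interval -0.12 to 0.33).

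Between day 21 and day 35 in WT all 10 fitted differences were below 0, with a median of -0.63, but only Tap1 was called lower (background 0.0576%). It fell by 0.81 on the log2 scale, from 280.2, 276 and 285 CPM to 177.2, 149, 164.2 and 149 CPM (SE 0.15, adjusted p = 0.0287). That call was lost without any single WT library of either day other than day 35 WT 1 (log2 fold change -0.86 to -0.77). In 7 of the 10 genes the libraries of the 2 days did not overlap, where 6.44% of all genes were lower without overlap, and a fit on those 2 groups alone also called H2-K1 (log2 fold change -0.62, adjusted p = 0.0435) and H2-D1 (-0.70, adjusted p = 0.0457) lower.

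In KO the EAE response was described in the same way. At day 21, 9 of 10 genes were higher than in naive KO, where 22.5% of all genes were called higher, and at day 35, 7 of 10 (background 11.6%). H2-K1 rose from 384, 497, 623 and 392 CPM in naive KO to 1638, 1766, 1631 and 1758 CPM at day 21 (3.58-fold, adjusted p = 2.35e-09). Nlrc5 rose from 23.6, 42.2, 65.0 and 28.3 CPM to 559.9, 553, 561 and 585 CPM (14.2-fold, log2 3.82, SE 0.40, adjusted p = 9.55e-08), and Tap1 from 79.9, 99.2, 109 and 87.5 CPM to 456, 474, 439.8 and 430.1 CPM (4.79-fold, adjusted p = 1.01e-12). The 4 day 21 KO libraries lay within a narrow band for both genes. B2m missed the threshold at day 21 (log2 fold change 0.40, 95% interval 0.06 to 0.75, adjusted p = 0.0509; 0.0291 by DESeq2). At day 35 B2m (log2 0.30), Tap2 (0.26, adjusted p = 0.0804; 0.038 by DESeq2) and Tapbp (0.19) did not pass. From naive KO to day 21 KO, 9 of 10 microglia, 7 of 8 neutrophil and 2 of 6 border macrophage markers were called lower, against 22.7% of all genes. In the same comparison 3 of 8 monocyte and 3 of 6 tested T and NK cell markers were called higher, against 22.5%. From naive KO to day 35 KO, 8 of 10 microglia and 5 of 6 border macrophage markers were lower, against 9.81% of all genes. Their part in the result was not tested.

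From day 21 to day 35 in KO 5 of the 10 genes fell, against 11.7% of all genes called lower. Nlrc5 fell by 1.68 on the log2 scale, to 159.8, 172.2, 184 and 189.8 CPM (SE 0.37, adjusted p = 0.00202), and Tap1 fell by 1.27, to 183, 186, 233 and 146.2 CPM (SE 0.14, adjusted p = 1.75e-07). Tap2 fell by 0.48 (adjusted p = 0.00174), Tapbp fell by 0.42 (adjusted p = 0.00709) and H2-K1 fell by 0.49 (adjusted p = 0.0334). The call of H2-K1 was lost without any single library of these 2 groups but day 35 KO 3 (log2 fold change -0.58 to -0.45). Microglia markers moved with these falls: 9 of the 10 were higher at day 35 than at day 21 in KO, against 13.3% of all genes. The monocyte sum went from 2333 to 3219 CPM at day 21 to 1031 to 1446 CPM at day 35. All 6 tested T and NK cell markers were lower, against 11.7% of all genes. Their part in the result was not tested.

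Old mice were sampled naive and at day 35. In them 7 of 10 genes were higher at day 35 (background 10.4%), among them Nlrc5, which went from 44.6, 29.0, 52.3 and 24.5 CPM to 216, 116.3 and 200.2 CPM (4.72-fold, adjusted p = 0.000911), and H2-Q7 (4.82-fold, adjusted p = 0.000463). H2-K1 rose from 759, 601, 706 and 403 CPM to 1142, 1202 and 1161 CPM (1.89-fold, adjusted p = 0.00133). In a fit on the 2 old groups alone, H2-K1 (log2 0.94, adjusted p = 0.0664), H2-M3 and Tap2 lost their calls. H2-D1 did not pass (log2 fold change 0.51, adjusted p = 0.0849, and 0.048 by DESeq2), and it passed without naive WT 3 (adjusted p = 0.0456), a library that enters this comparison only through the shared estimate of spread. B2m was at 2662, 2692, 2620.1 and 1819.7 CPM in naive old and 1826, 2275 and 1900.1 CPM at day 35 (log2 fold change -0.29, 95% interval -0.66 to 0.08). Day 35 old replicate 1 carried a neutrophil marker sum of 28799 CPM and a monocyte sum of 4744 CPM, the highest of all libraries. That library was the lowest of its group for 6 of the 10 genes, H2-K1 (1142 CPM) among them, and the highest for 1. Its microglia marker sum was 7194 CPM, against 18458 and 13400 in replicates 2 and 3. The part of other cells in these levels was not tested.

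**Figure D2:**
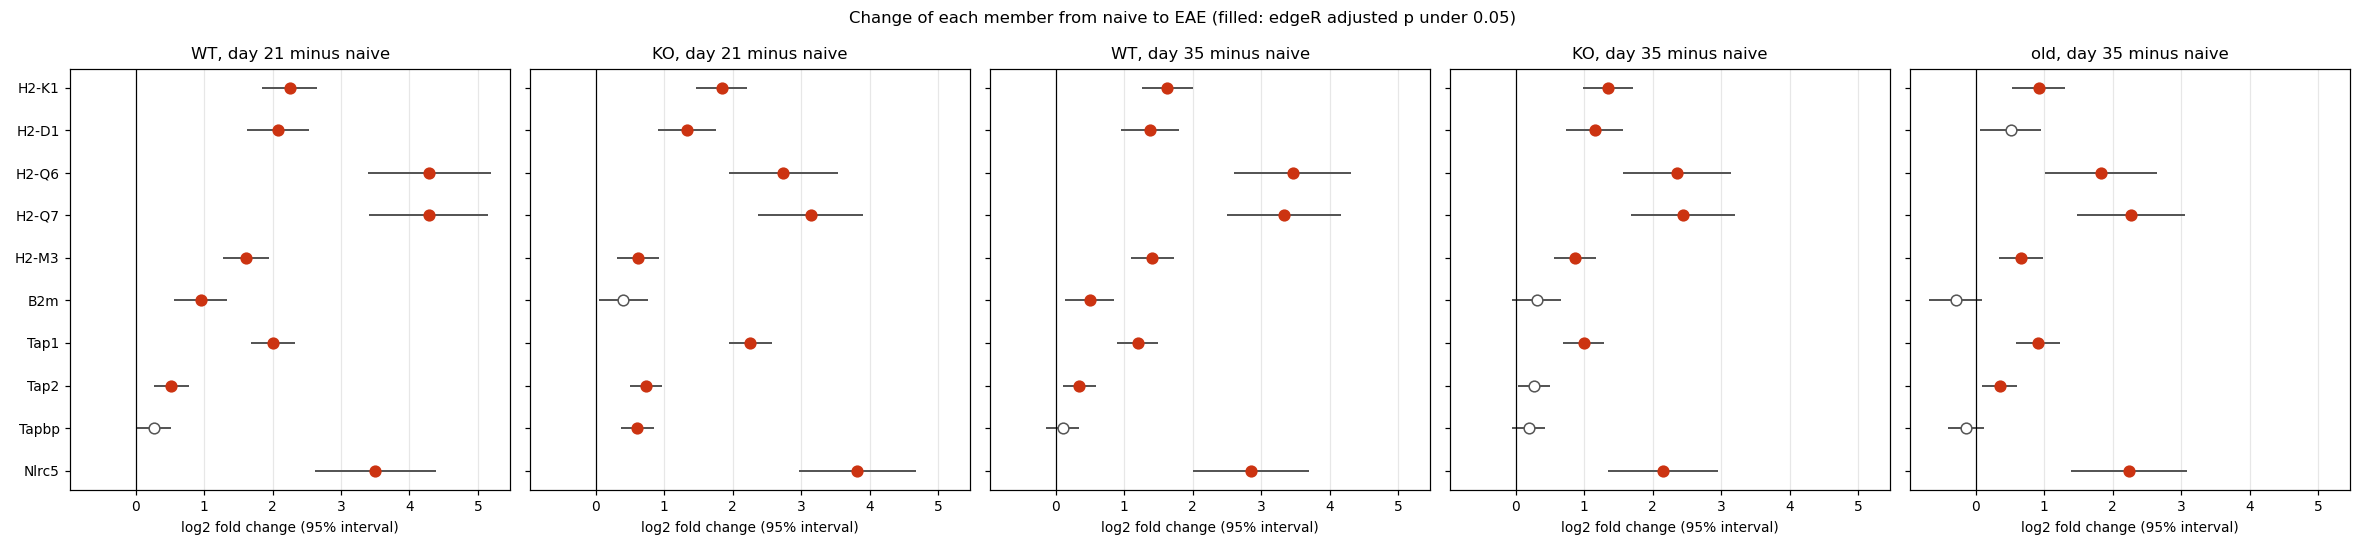
Log2 fold change (x axis) of each gene (y axis) from naive to EAE in 5 panels, with the 95% interval from the edgeR fit as a bar and a filled point where the adjusted p was under 0.05. H2-Q6, H2-Q7 and Nlrc5 lie furthest to the right in every panel, and Tapbp, Tap2 and B2m lie below 1 in every panel.

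The libraries labelled Atg7 KO were compared with WT at each stage. In naive mice all 10 fitted differences were above 0, with a median of 0.61 on the log2 scale against -0.02 over all genes, but only H2-M3 was called higher (background 0.238%). H2-M3 stood at 36.7, 47.2, 54.2 and 38.0 CPM in KO and 23.4, 25.1, 34.8 and 28.8 CPM in WT, with no overlap (1.57-fold, log2 0.65, SE 0.15, adjusted p = 0.0419). That call was lost when any of 16 libraries was left out in turn (log2 fold change 0.53 to 0.77 over all 30) and in a fit on the 2 naive groups alone. Unadjusted p was under 0.05 for 8 of the 10 genes, all higher in KO, against 4.53% of all genes. Without naive WT 3, 6 genes were called higher, against 0.318% of all genes: H2-M3 (log2 0.77), H2-Q6 (2.27, adjusted p = 0.000515), H2-Q7 (2.09, adjusted p = 0.00501), Nlrc5 (1.71, adjusted p = 0.0212), H2-D1 (0.89, adjusted p = 0.0225) and H2-K1 (0.82, adjusted p = 0.0212). With it, the log2 fold changes of the last 5 were 1.31, 1.07, 0.90, 0.62 and 0.61, none past the threshold. Among the naive KO libraries, replicate 3 was the highest for 9 of the 10 genes. Neutrophil marker sums were 625 to 2699 CPM in naive KO and 1801 to 14934 in naive WT. Microglia sums were 20386 to 21402 CPM against 17052 to 26428, and without naive WT 3 the WT sums (24286 to 26428) all lay above KO. Endothelial sums (43.2 to 46.8 against 53.6 to 67.1) did not overlap. Sums of the other marker lists overlapped. The part of these cells in the class I levels was not tested.

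Naive WT 3 was the highest of its group for 7 of the 10 genes, with B2m, Tap2 and Tapbp as the exceptions. It had the lowest microglia marker sum of the 4 (17052 CPM, against 24286 to 26428), the highest monocyte sum (1788, against 149 to 625) and the highest neutrophil sum (14934, against 1801 to 8168). Its T and NK cell sum was the lowest of the 4, at 5.38 CPM. Each of the 8 neutrophil and 8 monocyte markers had counts in this group. The part of other cells in its class I levels was not tested.

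**Figure D3:**
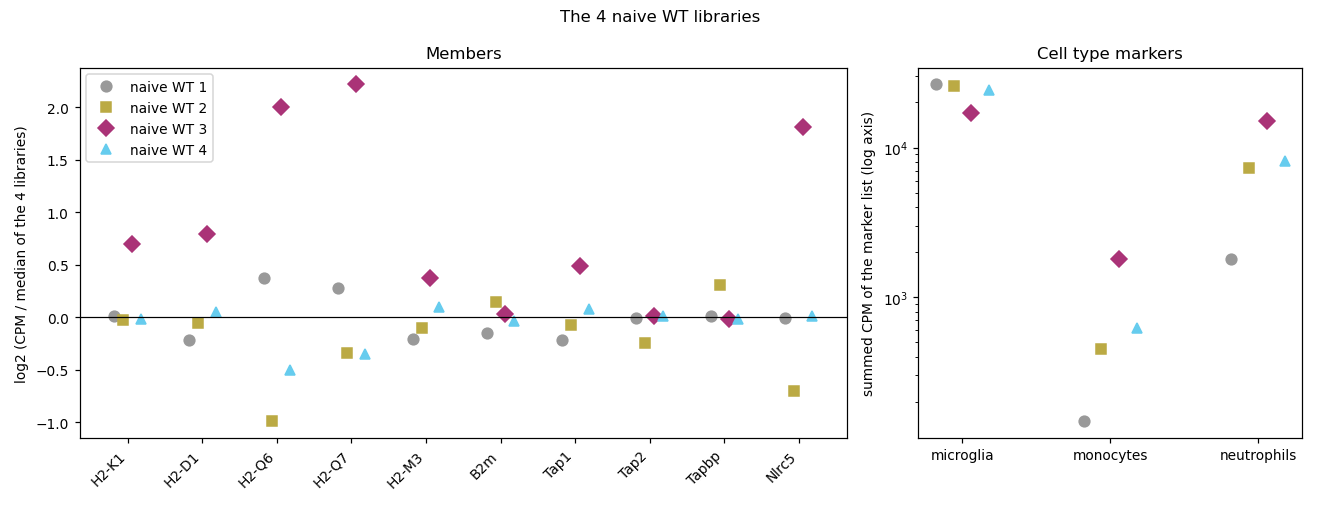
Left, log2 of the level of each gene in the 4 naive WT libraries over their median (y axis); right, summed CPM of 3 marker lists in the same libraries (log axis). Replicate 3 lies above the other libraries for H2-Q6, H2-Q7 and Nlrc5 (37.4, 15.3 and 48.3 CPM) and holds the highest monocyte and neutrophil sums.

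At day 21 the genes of transport, loading and regulation were higher in KO than in WT, while no heavy chain gene and not B2m passed the test. In all 4 of 10 genes were called higher, against 9.18% of all genes. Nlrc5 was at 559.9, 553, 561 and 585 CPM in KO and 261, 244 and 223 CPM in WT (2.33-fold, log2 1.22, SE 0.40, adjusted p = 0.0344). Tap1 was at 456, 474, 439.8 and 430.1 CPM in KO and 280.2, 276 and 285 CPM in WT (1.60-fold, log2 0.68, SE 0.15, adjusted p = 0.00204). Tapbp was at 441, 478, 425 and 422 CPM against 319, 335 and 355 CPM (1.31-fold, adjusted p = 0.0218), and Tap2 at 159, 155, 157.9 and 176 CPM against 121.6, 123.6 and 130.2 CPM (1.29-fold, adjusted p = 0.0244). The groups did not overlap in any of these 4 genes (20.5% of all genes were higher in KO without overlap). Tap1 kept its call without any single library (adjusted p up to 0.0144). The call of Nlrc5 was lost without any of the 7 day 21 libraries (log2 fold change 1.16 to 1.27, adjusted p up to 0.124), in a fit whose spread is shared with the more variable naive groups. A fit on the 2 day 21 groups alone gave Nlrc5 a log2 fold change of 1.21 (SE 0.07, adjusted p = 5.4e-11). Tap2 lost its call without any of the 3 WT libraries or KO 4 (log2 from 0.33), and Tapbp without KO 2, WT 1 or WT 2 (log2 from 0.35).

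H2-K1 at day 21 was at 1638, 1766, 1631 and 1758 CPM in KO and 1199.6, 1599 and 1639.9 CPM in WT (log2 fold change 0.20, 95% interval -0.18 to 0.58). H2-D1 (-0.13, interval -0.56 to 0.31), H2-Q6 (-0.24, -1.02 to 0.54), H2-Q7 (-0.07, -0.79 to 0.65) and B2m (-0.08, -0.45 to 0.29) did not pass either, and their groups overlapped. H2-M3 was at 66.7, 65.3, 65.7 and 73.3 CPM in KO and 71.3, 100.7 and 85.5 CPM in WT (log2 fold change -0.34, interval -0.65 to -0.03, adjusted p = 0.11), and it was called lower in a fit on these 2 groups alone (adjusted p = 0.00811). Whether the 2 sets of genes differ from each other in this comparison was not tested. The cells also differed in their markers, where 9.86% of all genes were called lower in KO and 9.18% higher. The microglia sum was 6426 to 7221 CPM in KO and 13526 to 16184 in WT, with 9 of 10 markers called lower. The monocyte sum was 2333 to 3219 against 200.3 to 541 (6 of 8 called higher). The T and NK cell sum was 24.02 to 28.9 against 1.46 to 7.54 (all 6 tested called higher). The border macrophage sum was 202 to 279 against 12.9 to 58.4 (2 of 6 called higher). Cd8b1 was at 0 in all day 21 WT libraries and Mzb1, a plasma cell marker, at 0 in all day 21 KO libraries. The part of these cells in the class I levels was not tested. EAE scores in the deposited sample table were 2.75 to 3 for KO and 2 to 3 for WT.

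At day 35 none of the 10 genes was called between KO and WT, where 2.62% of all genes were called in either direction, and none had an unadjusted p under 0.05 (19.3% of all genes did; 0 of the 10 were called by DESeq2). All 10 fitted differences were above 0, with a median of 0.19. Nlrc5 stood at 159.8, 172.2, 184 and 189.8 CPM in KO and 223, 159, 129.6 and 109.8 CPM in WT (log2 fold change 0.19, 95% interval -0.56 to 0.93), and Tap1 at 183, 186, 233 and 146.2 CPM against 177.2, 149, 164.2 and 149 CPM (0.23, interval -0.06 to 0.51). H2-K1 was the only gene of the 10 whose groups did not overlap, against 7.53% of all genes higher in KO without overlap (log2 fold change 0.32, interval -0.02 to 0.67, adjusted p = 0.294). The cells differed in their markers here too: the monocyte sum was 1031 to 1446 CPM in KO and 117 to 345 in WT, without overlap. Microglia sums (10024 to 14620 CPM in KO, 13540 to 20431 in WT) and neutrophil sums (654 to 3549 against 598 to 805) overlapped. The part of these cells in the class I levels was not tested. EAE scores were 2.5 to 3 for KO and 1 to 1.5 for WT.

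**Figure D4:**
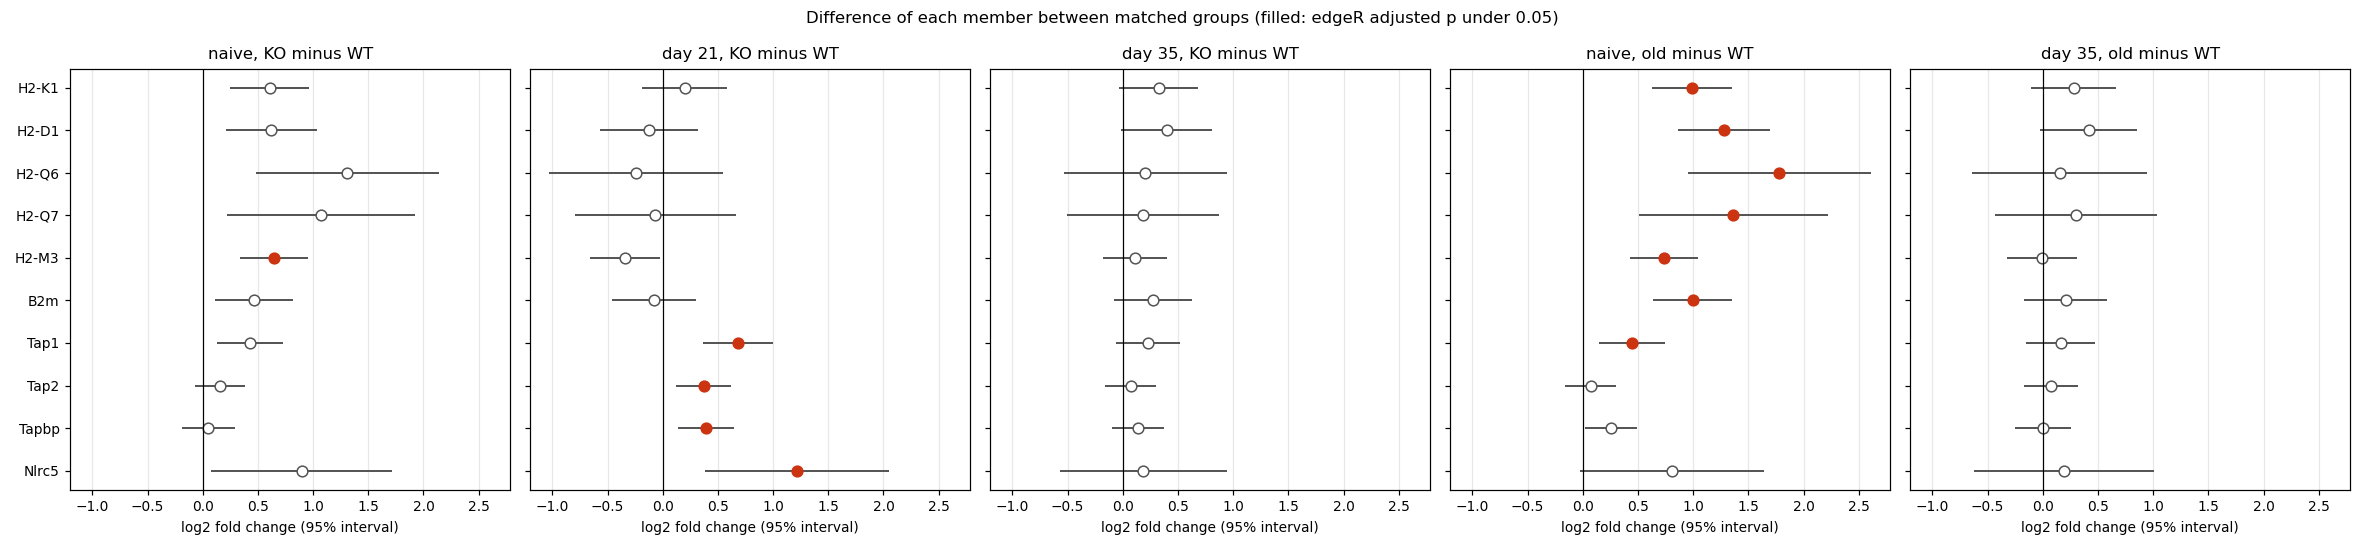
Log2 fold change (x axis) of each gene (y axis) between KO and WT in naive mice, at day 21 and at day 35, and between old and WT in naive mice and at day 35, with 95% intervals and filled points where the adjusted p was under 0.05. At day 21 the filled points are Tap1, Tap2, Tapbp and Nlrc5, and in naive old mice they are the 5 heavy chains, B2m and Tap1.

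Age was compared in naive and in EAE mice. In naive mice 7 of 10 genes were higher in old than in young WT, against 5.03% of all genes. B2m stood at 2662, 2692, 2620.1 and 1819.7 CPM in old and 1106, 1355, 1254 and 1196 CPM in WT, with no overlap (1.99-fold, log2 1.00, SE 0.17, adjusted p = 0.000452). H2-D1 stood at 1115, 866, 1053 and 650.1 CPM in old (2.43-fold, adjusted p = 0.000193), H2-K1 at 759, 601, 706 and 403 CPM (1.98-fold, adjusted p = 0.000564) and H2-Q6 at 58.0, 42.6, 66.3 and 47.2 CPM (3.44-fold, adjusted p = 0.00724; 6.67-fold without naive WT 3). H2-M3 was higher by 0.74 (adjusted p = 0.00208), H2-Q7 by 1.36 (adjusted p = 0.0419) and Tap1 by 0.45 (adjusted p = 0.0456) on the log2 scale. Naive old replicate 4 was the lowest of its group for 9 of the 10 genes. Tap2 (log2 fold change 0.07, 95% interval -0.15 to 0.29), Tapbp (0.26, 0.03 to 0.48) and Nlrc5 (0.81, -0.01 to 1.63) did not pass. Without naive WT 3, Nlrc5 passed as well (log2 1.62, adjusted p = 0.004), which made 8 of 10, against 5.31% of all genes called higher. Tap1 lost its call when any of 15 libraries was left out (log2 fold change 0.33 to 0.61) and H2-Q7 when any of 7 was (1.09 to 2.38). In a fit on the 2 naive groups alone, H2-Q6 (adjusted p = 0.148), H2-Q7 (0.234) and Tap1 (0.159) lost their calls. Monocyte marker sums were 967 to 1471 CPM in old and 149 to 1788 in WT. Neutrophil sums were 6385 to 11883 against 1801 to 14934, so both overlapped. Without naive WT 3, WT monocyte sums (149 to 625) all lay below those of old. WT microglia sums (24286 to 26428) then all lay above old (20527 to 24013). Dendritic cell sums (21.5 to 39.1 CPM in old, 15.9 to 20.5 in WT) did not overlap. Nor did endothelial sums (76.0 to 148.1 against 53.6 to 67.1). Of these lists only endothelial markers were called (1 of 3 higher, 1 lower). Whether these cells shaped the class I levels was not tested.

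At day 35 none of the 10 genes was called between old and young WT (0 at an unadjusted p under 0.05, against 23.4% of all genes, and 0 by DESeq2), where 9.45% of all genes were called in either direction (0 genes by edgeR in a fit on these 2 groups alone, with 1508 at an unadjusted p under 0.05, and 1603 by DESeq2). H2-D1 was at 1243, 1459 and 1239.6 CPM in old and 876, 881, 1149 and 1033 CPM in WT, without overlap (log2 fold change 0.42, 95% interval -0.02 to 0.85, adjusted p = 0.234). H2-K1 (1142 to 1202 CPM in old, 852 to 1025 in WT) did not overlap either, which made 2 of the 10 genes. The share of all genes without overlap was not counted for this comparison, so the count of 2 has no background to be read against. B2m differed by 0.21 on the log2 scale (interval -0.16 to 0.58). EAE scores were 2.75 to 3 for old and 1 to 1.5 for WT mice. Of the markers, 5 of 8 monocyte and 7 of 8 neutrophil ones were called higher in old, against 7.51% of all genes. The old libraries were uneven in them, with replicate 1 far above the others. Neutrophil sums were 28799, 2214 and 679 CPM in old and 598 to 805 in WT. Monocyte sums were 4744, 489 and 699 CPM in old and 117 to 345 in WT. Their part in the result was not tested.

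The difference between these responses was tested directly with interaction terms. From naive to day 21, H2-M3 rose less in KO than in WT (a difference of -0.99 in log2 fold change, SE 0.21, adjusted p = 0.00464), with 4.96% of all genes called in that direction: it rose 3.06-fold in WT and 1.54-fold in KO. H2-Q6 (-1.55, adjusted p = 0.0719), H2-D1 (-0.75, adjusted p = 0.0935) and H2-Q7 (-1.14, adjusted p = 0.178) missed the threshold. Without naive WT 3 all 3 passed as well, at -2.51, -1.01 and -2.16, so that 4 of 10 were called, against 2.71% of all genes called lower. For Nlrc5 the interaction was 0.32 (95% interval -0.82 to 1.47) and for Tap1 0.25 (-0.16 to 0.67), and without naive WT 3 they were -0.49 and 0.09, so the difference between KO and WT seen at day 21 was not shown to exceed that in naive mice. From naive to day 35, 0 of 10 genes differed between KO and WT (background 0.367%; 2 at an unadjusted p under 0.05, against 17.8% of all genes; 0 by DESeq2), and H2-Q6 was called without naive WT 3 (-2.06, adjusted p = 0.043). From day 21 to day 35, 0 of 10 differed (background 2.67%; 2 unadjusted, against 19.2%; 0 by DESeq2), with Nlrc5 at -1.03 (95% interval -2.14 to 0.07), which was called in a fit on these 4 groups alone (-1.02, adjusted p = 0.0114). From naive to day 35, 0 of 10 differed between old and WT (background 0.0432%; 5 unadjusted, against 11.7%; 0 by DESeq2). The fitted values there were below 0 in 9 of the 10 genes, such as H2-Q6 at -1.63 and B2m at -0.79, and without naive WT 3 H2-Q6 (-2.58, adjusted p = 0.00507) and H2-Q7 (-2.08, adjusted p = 0.0419) were called.

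Levels of different genes were compared per kilobase of exon. In naive WT the order ran from H2-Q7 (1.43 ± 1.44 CPM per kb, SD, n = 4) and Nlrc5 (2.48 ± 2.16) through H2-Q6 (7.28 ± 7.26), Tap1 (12.7 ± 2.85), H2-M3 (19.5 ± 3.53), Tap2 (23.02 ± 1.92) and Tapbp (77.3 ± 8.76) to H2-K1 (106 ± 28.7), H2-D1 (147 ± 50.4) and B2m (1428 ± 121). In day 21 KO Nlrc5 (66.5 ± 1.64, n = 4) stood above Tap2 (42.8 ± 2.56) and H2-M3 (47.1 ± 2.62), which it was below in naive WT, and B2m again led (2609 ± 170.6). Over the 8 groups the lowest mean of each gene was that of naive WT. The highest was day 21 KO for H2-K1, Tap1, Tap2, Tapbp and Nlrc5, day 21 WT for H2-D1, H2-Q6, H2-Q7 and H2-M3, and naive old for B2m. In that order of groups, Nlrc5 had 3 steps without overlap: from naive KO (39.8 ± 18.6 CPM) to day 35 WT (155 ± 49.4), from day 35 old (178 ± 53.6) to day 21 WT (243 ± 18.8, n = 3) and from there to day 21 KO (565 ± 13.9). Every neighbouring pair of groups overlapped for H2-D1 and for B2m. Across the 30 libraries the 45 pairs of genes had a median Pearson r of 0.83 on log2 CPM (0.42 to 0.99), which the group differences shape, and after group means were taken out a median of 0.55, with 42 of 45 above 0. These libraries share depth and cell content, so the values are a description.

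Other genes of the pathway were taken from lists by role. Of 12 tested further class I heavy chain genes, 8 rose and 1 fell in WT from naive to day 21, against 9.51% and 12% of all genes. H2-Q4 rose from 33.2 ± 13.4 to 229 ± 28.5 CPM (6.88-fold, adjusted p = 1.71e-09), H2-Q5 9.97-fold (15.8-fold without naive WT 3), H2-T22 2.97-fold and H2-T23, the Qa-1 gene whose product binds receptors of natural killer cells, 2.29-fold. H2-Q10, known as a liver-secreted form, fell by 3.64 on the log2 scale at very low levels (4.55 ± 2.45 to 0.366 ± 0.272 CPM). None of the 12 was called between KO and WT in naive mice, at day 21 or at day 35. Of all genes 0.288%, 19.0% and 2.62% were called there in either direction. In naive old 4 of 12 were higher than in naive WT, against 5.03% of all genes, H2-T23 among them (1.44-fold, adjusted p = 0.00354). H2-T23 at day 21 (228 ± 5.22 CPM in KO, 182 ± 23.4 in WT) missed the threshold (adjusted p = 0.0546).

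The immunoproteasome, whose interferon-induced subunits shape the peptides for class I, gave 3 of 5 genes higher in WT at day 21 than in naive WT. The share of all genes was 9.51%. Psmb9 led them (17.3 ± 5.73 to 46.9 ± 4.94 CPM, 2.69-fold, adjusted p = 1.63e-06). At day 21, 4 of 5 were higher in KO than in WT, against 9.18% of all genes: Psmb8 stood at 163.4 ± 9.66 against 101.4 ± 6.48 CPM (1.61-fold, adjusted p = 0.000429), Psmb10 rose 1.55-fold and Psme1, a proteasome activator subunit, 1.35-fold, with Psme2 as the fourth. Psmb9, which shares exonic sequence with Tap1 on the opposite strand, did not pass (1.31-fold, adjusted p = 0.111). For Psmb8 the interaction of genotype and day 21 passed (0.56, SE 0.18, adjusted p = 0.0413), but not without naive WT 3 (adjusted p = 0.0906). Of 7 genes of loading and trimming, Canx, the chaperone calnexin, was lower in WT at day 21 than in naive WT (log2 fold change -0.45, adjusted p = 0.0341). There 12% of all genes were called lower. Tapbpl, a tapasin relative that edits peptides, was higher in KO than in WT at day 21 (48.2 ± 2.39 against 34.3 ± 3.30 CPM, 1.40-fold, adjusted p = 0.037), as were 9.18% of all genes.

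Of 16 regulators of class I transcription, 5 rose and 3 fell in WT from naive to day 21, against 9.51% and 12% of all genes. Among those that rose were Stat2 (3.43-fold) and Irf1 (2.39-fold), which carry interferon signals to promoters, and Ciita and Rfx5. Nfyb, a subunit of NF-Y (log2 -0.74), Creb1 (-0.35) and Irf2 (-0.31) fell. At day 21 4 of 16 were higher in KO than in WT, against 9.18% of all genes, among them Ciita, Stat2 at 379 ± 16.0 against 176.9 ± 16.4 CPM (2.14-fold, adjusted p = 2.34e-05) and Irf1 at 310.04 ± 15.4 against 173.05 ± 4.38 CPM (1.79-fold, adjusted p = 1.98e-05). The interaction with genotype passed for Stat2 (0.88, adjusted p = 0.0118) and Irf1 (0.61, adjusted p = 0.0184), the latter not without naive WT 3 (0.55, adjusted p = 0.0529). At day 35 only Creb1 of the 16 was called between KO and WT, against 2.62% of all genes in either direction. Creb1 was lower in KO (log2 fold change -0.39, adjusted p = 0.0377).

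Among the interferons and their receptors, Ifnb1 rose in WT from 0.739 ± 1.06 CPM in naive to 13.4 ± 1.61 CPM at day 21 (adjusted p = 2.33e-05). The 4 naive WT libraries held 20 counts, of which 15 were in replicate 3 and 5 in replicate 4, and 2 libraries had none. At day 21 Ifnb1 stood at 9.70 ± 4.02 CPM in KO and did not differ from WT by the test (adjusted p = 0.538). At day 35 it was higher in KO, at 12.8 ± 1.87 against 3.54 ± 1.82 CPM (adjusted p = 0.0377). Ifng, the interferon of T and NK cells, had 48 counts in the 4 day 21 KO libraries (8, 14, 11 and 15) and 1 count in the 3 day 21 WT libraries (adjusted p = 0.00658), beside the T and NK cell markers given above. Ifngr1, a chain of its receptor, was lower in KO at day 21 (391 ± 29.8 against 653 ± 48.9 CPM, adjusted p = 0.00963). Klra2, a Ly49-family receptor gene, was the only tested class I receptor gene of 3 that was called there, at 14.8 to 20.1 CPM in KO and 0.146 to 4.86 in WT (adjusted p = 0.0489, and 0.0511 without naive WT 3). Of all genes, 19.0% were called in either direction between KO and WT at day 21.

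The genes whose level ran most like the mean log2 profile of the 10 over the 30 libraries, out of 9514 genes ranked, were Fgl2 (Pearson r 0.98), C4b (0.97), Slamf8, Ifit3, Tgtp2 and Lgals3bp. For Nlrc5 the first 6 included Tgtp2 (r 0.98), H2-Q4 (0.98), Gbp4, Iigp1 and Trpm2. Over the 18 EAE libraries alone, 3 of the first 6 remained for the profile (C4b, Lgals3bp and Fgl2) and 1 of 6 for Nlrc5 (Gbp4), where Stat2 came first (r 0.99). The 30 libraries share group, depth and cell content, so these are descriptions of likeness only.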

How the data were processed

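RNA of sorted microglia went into SMARTer Stranded Total RNA Pico libraries, per the labels' protocols. The deposited table holds whole-number counts per Ensembl gene, made by the authors with CASAVA, bcl2fastq and STAR on GRCm38, per the submitters' processing notes. Which counter and strand setting were used is not given in the sources used here. Per the file headers, the deposited sample table adds the EAE score and an RNA integrity score of 8.5 to 10.0. Column names were joined to titles through plate wells, an inference that matched 30 of 30 groups; 2 of 32 columns were not used. Genes without a symbol held 0.0552% of counts. Replicate numbers are accession order.

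Genes were filtered with filterByExpr (minimum count 10, total 15), scaled by TMM and fitted with 1 mean per group over 30 libraries (22 residual degrees of freedom) with edgeR 4.0.16 in R 4.3.3 (robust quasi-likelihood F test, 16 contrasts, Benjamini-Hochberg adjustment over 13880 genes, threshold 0.05). Standard errors and 95% intervals come from that fit; CPM uses TMM factors. The fit was tested on simulated data. Alternatives were RLE size factors, DESeq2 1.42.0, no filter, only the groups compared, the i5 index as a factor, day 35 WT 3 moved to KO, near-identical copies summed and each library left out. List genes named are up to 4 with the lowest adjusted p in WT day 21 against naive, up to 2 called at day 21 and at day 35 between KO and WT, and any called against the list's majority; other list genes, such as Psme2, Ciita and Rfx5, are named only to complete a count, after values were seen. Profile genes are the first 6 by r with a mean of at least 5 CPM. The genes and lists were chosen with earlier results of these data known. A listed gene is not reported here by name. Promoter windows come from RefSeq.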

Additional observations from a re-analysis of the deposited data

Results flagged for a closer look

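Among 60 sets of 4 libraries (10 genes in 6 groups), 6 held a library whose gap to its nearest neighbour was large for the group's range (Dixon's test at 95%, which chance flags in about 1 of 20 sets). In naive WT, replicate 3 was high for H2-K1 (438 CPM, others 266 to 274), Nlrc5 (48.3 CPM, others 8.44 to 13.8) and H2-Q7 (15.3 CPM, others 2.57 to 3.97). Replicate 2 of the same group was low for Tap2 (76.2 CPM, others 89.7 to 91.2) and high for Tapbp (327.9 CPM, others 263 to 267). In naive old, replicate 4 was low for B2m (1819.7 CPM, others 2620.1 to 2692).

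In the main fit H2-M3 was the only gene of the 10 whose response to EAE differed between genotypes by the test of the difference. Its rise from naive to day 21 was smaller in KO than in WT by 0.99 on the log2 scale (interaction -0.99, edgeR adjusted p = 0.00464, out of 40 interaction tests on these genes). Other fits called more genes. Without naive WT 3, H2-Q6, H2-Q7 and H2-D1 passed too at day 21, and H2-Q6 at day 35. DESeq2 also called H2-Q6 at day 21 (adjusted p = 0.0494). A fit on the groups compared called Nlrc5 from day 21 to day 35 (edgeR adjusted p = 0.0114).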

How the results depend on the processing

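No result reversed its direction among called values under any alternative. Left-out libraries gave these ranges of called genes of the 10: WT day 21 against naive 9 to 10, WT day 35 against naive 7 to 9, WT day 35 against day 21 0 to 1, KO day 21 against naive 9 to 10, KO day 35 against naive 7 to 8, KO day 35 against day 21 4 to 6, old day 35 against naive 6 to 8, naive KO against WT 0 to 6, day 21 KO against WT 1 to 4, naive old against WT 5 to 8, and for the interactions KO minus WT at day 21 1 to 4, at day 35 0 to 1 and old minus WT at day 35 0 to 2; the remaining 3 stayed at 0. Fits on only the groups compared gave the next counts, with the share of all genes called in the same fit in brackets. They called 0 for naive KO against WT (0.149% in either direction) and 3 for WT day 35 against day 21 (0.698% lower). For KO day 35 against day 21 they called 8. Of these 7 were lower (16.4% lower), and H2-M3 was higher by 0.27 (edgeR adjusted p = 0.0288, 16.1% higher). They called 4 for old day 35 against naive (1.09% higher) and 4 for naive old against WT (3.74% higher). For the day 35 against day 21 interaction they called 1 (3.19% lower). Without a filter, day 21 KO against WT gave 2 (Tap1 and Tapbp), against 2.83% of all genes called higher. With day 35 WT 3 moved to KO, WT day 35 against day 21 gave 0. DESeq2 gave 2 for the KO minus WT day 21 interaction, against 6.16% of all genes called lower. Counts over all genes moved too: those higher, from 1274 to 2338 for day 21 KO against WT, 1440 to 135 for old day 35 against naive, 1166 to 758 for WT day 35 against naive, 698 to 448 for naive old against WT and 33 to 13 for naive KO against WT in fits on the groups compared (58 by DESeq2 for the last); those lower, from 8 to 86 (69 by DESeq2, 40 without naive WT 3) for WT day 35 against day 21 and from 688 to 1155 for the day 21 interaction (375 without naive WT 3); in either direction, from 363 to 559 (723 by DESeq2, 143 without a filter) for day 35 KO against WT, 1312 to 0 (849 without a filter) for day 35 old against WT, 51 to 119 (478 by DESeq2, 7 without naive WT 3) for the KO interaction at day 35 against naive, 370 to 1104 (734 by DESeq2) for that at day 35 against day 21, and 6 to 240 by DESeq2 (21 without naive WT 3) for the old interaction. The number of genes tested differed too, at 11982 to 13336 in fits on the groups compared and 30273 without a filter, against 13880. The cause of these shifts was not tested. No paired analysis was possible because the labels give no replicate numbers shared between groups; the i5 index as a factor moved no count past 1.5 times.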
